A study of Mus musculus with 2 samples.

Results

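The NF-kB transcription factor subunits and their feedback inhibitors were followed as 10 genes in single cells sorted from the mouse spinal cord. The members were the 5 subunit genes Nfkb1, Nfkb2, Rel, Rela and Relb and the 5 inhibitor or regulator genes Nfkbia, Nfkbiz, Nfkbid, Bcl3 and Tnfaip3. The latter 5 are called inhibitors below as a group name only. All members were found by gene symbol, and each matched 1 of the 27998 genes in the deposited matrices. The first library came from mice labelled Runx1 Knock-out that had received tamoxifen, and the second from mice labelled Wild type that had received vehicle. These are called the KO-labelled and the WT-labelled library. Both groups were C57BL/6J mice given the same transgenic strain, Cx3cr1-CreERT2-YFP::flxRunx1, so an inducible Cre recombinase, a yellow fluorescent protein (YFP) and a floxed Runx1 are shared by the labels of both. Injections were given once a day on 5 days, with tamoxifen at 1 mg per day, and the cords were taken 4 weeks after the start for sorting of YFP-positive cells. Cre is driven from Cx3cr1, a receptor gene active in microglia and other phagocytes, and tamoxifen and genotype cannot be told apart. The age of the mice and the number pooled are not stated in the labels.

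Each group had 1 library, so no test between groups was possible. All intervals are 95% intervals for counting error only and leave out the variation between animals and between libraries. The KO-labelled library held 2604 barcodes and 13075939 UMIs (unique molecular identifiers, each marking 1 captured transcript), with a median of 3715.5 UMIs per barcode. The WT-labelled library held 4582 barcodes and 37446978 UMIs, with a median of 6376. The libraries shared 9 barcode sequences. Runx1, the targeted gene, was at 180 CPM (170 to 191) in KO-labelled and 92.3 CPM (87.6 to 97.1) in WT-labelled cells of the microglia-like class, where CPM are UMIs of a gene in 1000000 UMIs of the same cells. The targeted gene was thus not lower in KO-labelled cells. The tags come from transcript 3′ ends and the deleted part is not named, so a tag outside it checks nothing, and each direction below compares the libraries as labelled.

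NF-kB is a family of dimeric transcription factors that carry signals from cytokine and pattern-recognition receptors to the nucleus. In the resting cell the dimers are held in the cytoplasm by IκB proteins, and stimulation leads to IκB degradation and nuclear entry. Many of the genes that NF-kB switches on encode its own inhibitors, among them Nfkbia and Tnfaip3, which end the response. In microglia, the macrophages that reside in brain and spinal cord, the pathway is known for its part in the transcription of inflammatory cytokines.

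Because the feedback acts at their promoters, the promoter sequences of the members are shown here. RefSeq promoter windows on GRCm38.p6, each 300 bases long from 250 before the transcript start to 50 after it, were given for 7 of the 10 members, in 12 windows. A 10-base match to the NF-kB consensus, searched on both strands with overlapping matches merged, lay in at least 1 window of 6 of these 7 genes. The gene without a match was Rela. Of all 27025 genes with a window, 9.55% held a match, and of all 32851 windows 8.46%. The matches are in capitals, and positions count backward from the transcript start.
Nfkbia, chr12:55492648-55492747, minus strand, positions -100 to -1: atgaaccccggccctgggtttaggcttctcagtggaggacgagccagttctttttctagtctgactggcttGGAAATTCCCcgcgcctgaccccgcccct
Tnfaip3, chr10:19015411-19015550, minus strand, positions -140 to -1 of the first of 2 windows: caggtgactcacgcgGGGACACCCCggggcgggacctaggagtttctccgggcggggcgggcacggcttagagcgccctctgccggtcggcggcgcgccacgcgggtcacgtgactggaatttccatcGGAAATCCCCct
Nfkbid, chr7:30422166-30422256, plus strand, positions -240 to -150 of the second of 3 windows: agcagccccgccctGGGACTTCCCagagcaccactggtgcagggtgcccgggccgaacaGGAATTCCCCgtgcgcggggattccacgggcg
Rel, chr11:23770970-23771089, minus strand, positions -120 to -1: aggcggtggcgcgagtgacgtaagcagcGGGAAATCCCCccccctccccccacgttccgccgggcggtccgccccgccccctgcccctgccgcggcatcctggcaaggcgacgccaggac
Nfkb2, chr19:46304677-46304736, plus strand, positions -60 to -1 of the first of 3 windows: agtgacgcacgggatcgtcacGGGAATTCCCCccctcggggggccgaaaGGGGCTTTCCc
Rela, chr19:5637441-5637540, plus strand, positions -100 to -1, with no match: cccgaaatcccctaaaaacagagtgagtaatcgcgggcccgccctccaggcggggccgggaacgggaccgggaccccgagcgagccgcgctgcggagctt
In Bcl3 the match lay just after the start, at positions 3 to 12. The 6-base Runx motif TGTGGT, searched on both strands, lay in windows of 2 members, at position -202 of Rel and at -187 of the third Nfkbid window, beside 18.9% of all genes. These matches describe the letters only.

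Cells were clustered over both libraries without the 10 members, Runx1 or sex-linked genes, and named from marker lists. Microglia-like cells numbered 1358 in the KO-labelled library (median depth 3465 UMIs) and 2201 in the WT-labelled library (median depth 5539 UMIs). The endothelial-like class, which lines vessels, held 830 cells (KO-labelled) and 1618 cells (WT-labelled), the pericyte or smooth muscle-like class 141 (KO-labelled) and 196 (WT-labelled) and the erythrocyte-like class 74 (KO-labelled) and 55 (WT-labelled). All 12 microglia markers were detected in microglia-like cells of both libraries and summed to 35210 CPM in KO-labelled and 31344 CPM in WT-labelled cells. Microglia-like cells of the libraries lay in different clusters, with 1350 of the 1358 KO-labelled cells in cluster 2 and 2187 of the 2201 WT-labelled cells in cluster 0. Endothelial-like cells did too, with 809 KO-labelled cells in cluster 3 and 1545 WT-labelled cells in cluster 1.

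RNA of other cells was present in each class, in unequal amounts. The 9 endothelial markers summed to 2138 CPM in KO-labelled and 6517 CPM in WT-labelled cells of the microglia-like class, all 9 were lower in KO-labelled cells, and none was at 0. The 5 erythrocyte markers summed to 1741 CPM in KO-labelled and 3398 CPM in WT-labelled cells, and the 8 pericyte markers to 139 CPM in KO-labelled and 297 CPM in WT-labelled cells. Conversely, microglia markers made up 4557 CPM in KO-labelled and 11700 CPM in WT-labelled cells of the endothelial-like class. The part of this RNA in each level given here was not tested, except by the alternatives named beside the results.

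The inhibitor genes held most of the RNA of the group, and Nfkbia held most of that. The 10 members summed to 5824 CPM (5764 to 5885) in KO-labelled and 3563 CPM (3534 to 3593) in WT-labelled cells of the microglia-like class, a 1.63-fold higher level in KO-labelled cells. The 5 inhibitors made up 5421 CPM (KO-labelled) and 3286 CPM (WT-labelled) of these sums, and the 5 subunits 404 CPM (KO-labelled) and 278 CPM (WT-labelled). Inhibitor RNA was thus 13.4 times subunit RNA in KO-labelled and 11.8 times in WT-labelled cells. UMIs count tagged molecules and need no division by gene length.

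Among the subunits, Nfkb1 and Rel were the most abundant and were higher in KO-labelled cells, whereas Rela and Relb did not differ beyond counting error. Nfkb1 (chromosome 3, 135584655 to 135691547, minus strand, GRCm38) encodes p105, the precursor of p50. It was at 162 CPM (152 to 172) in KO-labelled and 79.4 CPM (75.1 to 83.9) in WT-labelled cells, a log2 ratio of 1.03 (0.91 to 1.15). Rel encodes c-Rel, a transactivating subunit of lymphoid and myeloid cells. It was at 137 CPM (128 to 147) in KO-labelled and 91.7 CPM (87.0 to 96.5) in WT-labelled cells, a log2 ratio of 0.58 (0.46 to 0.70) that lay just below 1.5-fold. For Rel this ratio was 0.35 with the library make-up taken out and -0.21 with each library clustered separately, alternatives described with the counts of members. Rela encodes p65, the main transactivating partner of p50. It was at 51.7 CPM (46.1 to 57.7) in KO-labelled and 57.3 CPM (53.7 to 61.2) in WT-labelled cells, with a log2 ratio of -0.15 (-0.34 to 0.035). Relb and Nfkb2 encode the partners of the non-canonical branch, RelB and p100, the precursor of p52. Relb (chromosome 7, 19606217 to 19629438, minus strand) was at 37.7 CPM (33.0 to 42.9) in KO-labelled and 36.6 CPM (33.7 to 39.7) in WT-labelled cells, a log2 ratio of 0.042 (-0.18 to 0.26). Nfkb2 was at 15.6 CPM (12.6 to 19.0) in KO-labelled and 12.6 CPM (10.9 to 14.4) in WT-labelled cells, under the 20 CPM needed in at least 1 library to count as measured.

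Of the inhibitors, 4 were higher by more than 1.5-fold in KO-labelled microglia-like cells, and Tnfaip3 had the highest ratio of the 10 members. Nfkbia (chromosome 12, 55489410 to 55492647, minus strand) encodes IκBα, which retains NF-kB dimers in the cytoplasm. It was at 4532 CPM (4479 to 4585) in KO-labelled and 2850.05 CPM (2824 to 2876) in WT-labelled cells, a log2 ratio of 0.67 (0.65 to 0.69). Tnfaip3 (chromosome 10, 19000910 to 19015657, minus strand) encodes A20, a ubiquitin-editing enzyme that shuts off signalling upstream of the IκB kinases. It was at 278 CPM (265 to 292) in KO-labelled and 90.5 CPM (85.9 to 95.3) in WT-labelled cells, a 3.08-fold difference and a log2 ratio of 1.62 (1.52 to 1.72). Nfkbiz (chromosome 16, 55811375 to 55838899, minus strand) and Nfkbid encode IκBζ and IκBNS, nuclear IκB proteins that modulate NF-kB on chromatin. Nfkbiz was at 394 CPM (379 to 410.1) in KO-labelled and 217 CPM (209.8 to 224) in WT-labelled cells, a log2 ratio of 0.86 (0.79 to 0.94). Nfkbid was at 211 CPM (199.9 to 223) in KO-labelled and 122 CPM (116 to 127) in WT-labelled cells, a log2 ratio of 0.80 (0.69 to 0.90). Bcl3, another nuclear IκB gene, was scarce, with 32 UMIs (KO-labelled) and 105 UMIs (WT-labelled), or 5.20 CPM (3.56 to 7.34) in KO-labelled and 6.59 CPM (5.39 to 7.98) in WT-labelled cells.

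**Figure D1:**
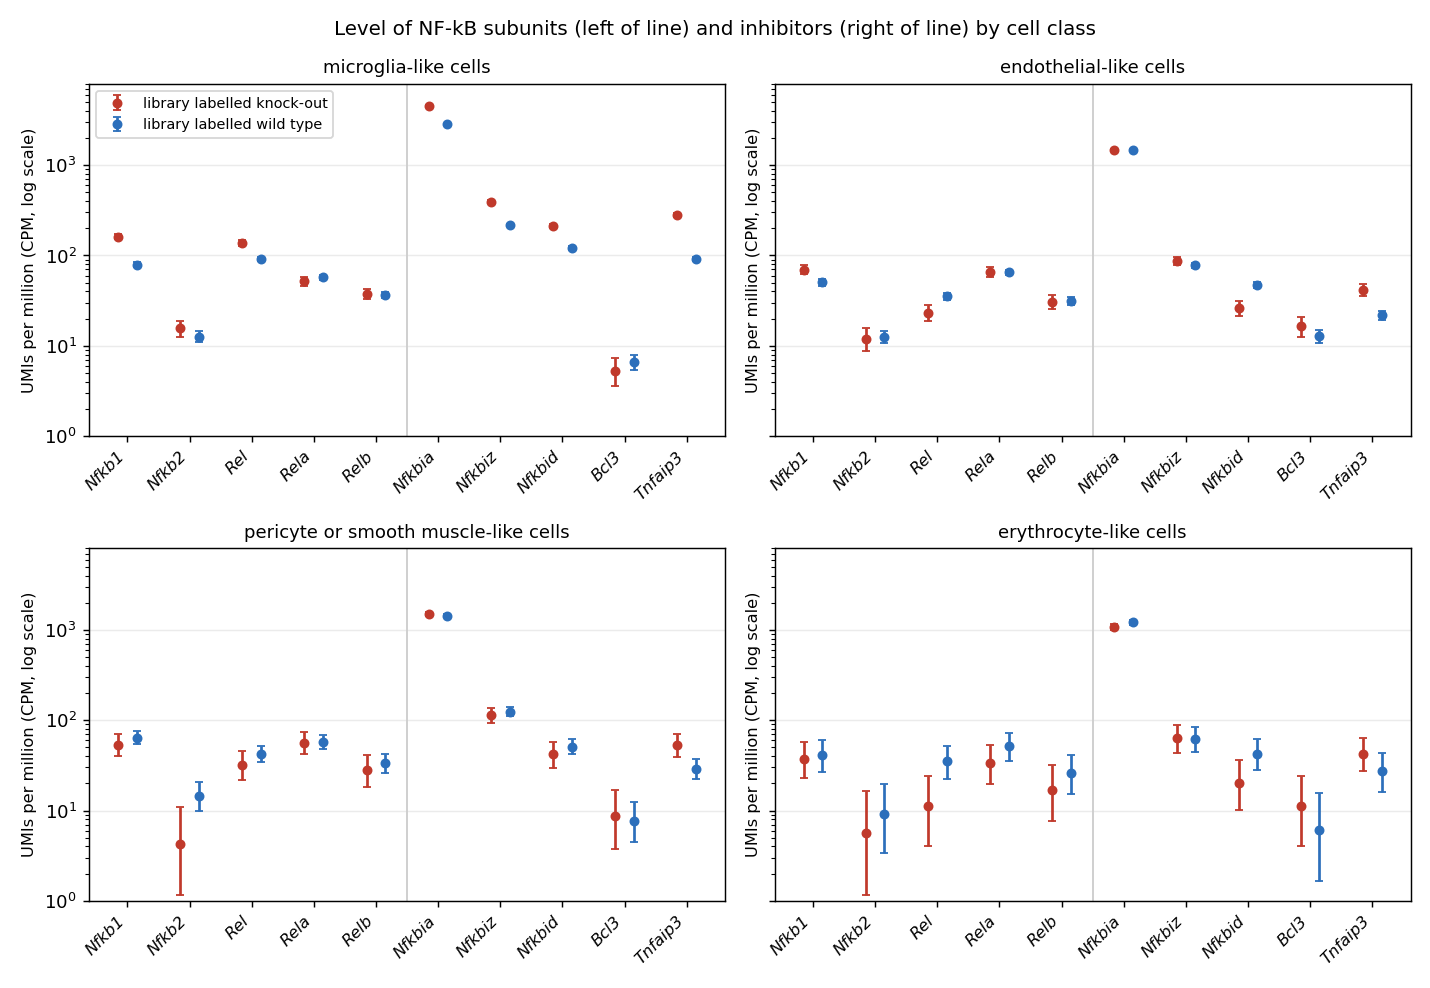
Level of each member in 4 cell classes, as CPM on a log axis, with points for the KO-labelled library (red, left of each pair) and the WT-labelled library (blue) and bars for the 95% counting interval. In microglia-like cells Nfkb1, Rel, Nfkbia, Nfkbiz, Nfkbid and Tnfaip3 stand higher in the KO-labelled library, with intervals that do not overlap, whereas Rela, Relb, Nfkb2 and Bcl3 have overlapping intervals.

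Of the 8 members that reached 20 CPM, each in both libraries, 7 had a log2 ratio above 0 in microglia-like cells, beside 46.6% of the 5749 genes measured there. At least 1.5-fold higher in KO-labelled cells were 5 of the 8, beside 7.9% of genes, and 0 were 1.5-fold lower, beside 12.5%. The 8 members had a median log2 ratio of 0.73, beside -0.037 over all measured genes. In an alternative, the make-up of the whole library was taken out until no endothelial marker RNA was left, which removed 19.8% of UMIs (KO-labelled) and 50.03% (WT-labelled) and also takes out some microglial RNA. Then 3 of the 8 stayed past 1.5-fold, beside 11.4% of genes in that setting. They were Tnfaip3 at 1.31, Nfkb1 at 0.90 and Nfkbiz at 0.60 on the log2 scale. Over all filtered cells the number was also 3, beside 4.30% of genes. With each library clustered separately and named by the same rule, the number was 0, beside 8.94% of genes. The larger microglial cluster of the KO-labelled library then stayed unnamed, and the median was -0.12, beside -0.0047 for all genes.

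The order of the members by level was nearly the same in both libraries. In KO-labelled microglia-like cells it ran Nfkbia, Nfkbiz, Tnfaip3, Nfkbid, Nfkb1, Rel, Rela, Relb, Nfkb2 and Bcl3, and no neighbours had overlapping intervals. In WT-labelled cells Tnfaip3 stood after Nfkbid and Rel, with an interval that overlapped that of Rel, and Rel stood above Nfkb1 without overlap. Endothelial-like cells had Rela higher in the order, at rank 4 in KO-labelled and rank 3 in WT-labelled cells, and Bcl3 above Nfkb2 with overlapping intervals.

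Set beside endothelial-like cells of the same library, 6 members were higher in microglia-like cells of both libraries beyond their intervals, and Rela and Bcl3 were lower. Microglia markers, which give the scale for RNA that endothelial-like cells should lack, were 7.73-fold higher in microglia-like cells of the KO-labelled library and 2.68-fold higher in those of the WT-labelled library. Nfkbid was 8.13-fold (6.65 to 10.0) higher (KO-labelled) and 2.58-fold (2.35 to 2.84) higher (WT-labelled), Rel 5.91-fold (KO-labelled) and 2.61-fold (WT-labelled) and Tnfaip3 6.73-fold (KO-labelled) and 4.17-fold (WT-labelled). The interval of Nfkbid held the fold of the microglia markers in both libraries. That of Rel held it in the WT-labelled library (2.34 to 2.91) and lay below it in the KO-labelled one (4.76 to 7.41). For Nfkbiz the interval held it in the WT-labelled library only (2.60 to 3.01), and for Tnfaip3 in the KO-labelled library only (5.73 to 7.95). Nfkbiz was 4.56-fold higher (KO-labelled) and 2.79-fold higher (WT-labelled), Nfkbia 3.08-fold (KO-labelled) and 1.93-fold (WT-labelled) and Nfkb1 2.32-fold (KO-labelled) and 1.58-fold (WT-labelled). Relb was 1.24-fold (0.99 to 1.55) (KO-labelled) and 1.16-fold (1.02 to 1.33) (WT-labelled) higher, and Nfkb2 1.32-fold (0.92 to 1.91) (KO-labelled) and 1.00-fold (0.80 to 1.25) (WT-labelled). Rela and Bcl3 had higher levels in endothelial-like cells, by 1.26-fold (KO-labelled) and 1.14-fold (WT-labelled) for Rela and 3.15-fold (KO-labelled) and 1.94-fold (WT-labelled) for Bcl3. Erythrocyte-like cells, in which these genes should be low, still held 1086 CPM in KO-labelled and 1214 CPM in WT-labelled cells of Nfkbia, not far below the 1472 CPM in KO-labelled and 1474 CPM in WT-labelled cells of the endothelial-like class.

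The member sum differed between the libraries in microglia-like cells and was nearly level in vessel cells. In endothelial-like cells it was 1843 CPM (1801 to 1886) (KO-labelled) and 1828 CPM (1804 to 1853) (WT-labelled), and in pericyte-like cells 1878 CPM (KO-labelled) and 1865 CPM (WT-labelled). Nfkbia had log2 ratios of -0.0019 (-0.045 to 0.041) in endothelial-like and 0.045 (-0.047 to 0.14) in pericyte-like cells. Tnfaip3 was the one member more than 1.5-fold higher in KO-labelled cells of all 3 classes. It was at 41.3 CPM (KO-labelled) and 21.7 CPM (WT-labelled) in endothelial-like cells, a log2 ratio of 0.93 (0.64 to 1.22), and at 52.7 CPM (KO-labelled) and 28.7 CPM (WT-labelled) in pericyte-like cells, a log2 ratio of 0.88 (0.31 to 1.44). Nfkb1 was at 69.8 CPM (KO-labelled) and 50.4 CPM (WT-labelled) in endothelial-like cells, a log2 ratio of 0.47 (0.26 to 0.68), and at 53.8 CPM (KO-labelled) and 64.3 CPM (WT-labelled) in pericyte-like cells, a log2 ratio of -0.26 (-0.75 to 0.22).

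Rel and Nfkbid were lower in KO-labelled endothelial-like cells. Rel was at 23.2 CPM (KO-labelled) and 35.2 CPM (WT-labelled), a log2 ratio of -0.60 (-0.94 to -0.27), and Nfkbid at 26.0 CPM (KO-labelled) and 47.1 CPM (WT-labelled), a log2 ratio of -0.86 (-1.18 to -0.55). Microglia marker RNA in the same cells was lower too, at 4557 CPM (KO-labelled) and 11700 CPM (WT-labelled), and its part in these ratios was not tested. Of the 8 members measured in endothelial-like cells, 4 had a ratio above 0, beside 61.1% of 6288 genes, 1 was at least 1.5-fold higher, beside 5.3%, and 2 were 1.5-fold lower, beside 6%. Their median was 0.00080, beside 0.091 for all genes. In pericyte-like cells 2 of 8 were above 0, beside 56.2% of 6763 genes, 1 was 1.5-fold higher, beside 10.8%, and 0 were lower, beside 7.93%.

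**Figure D2:**
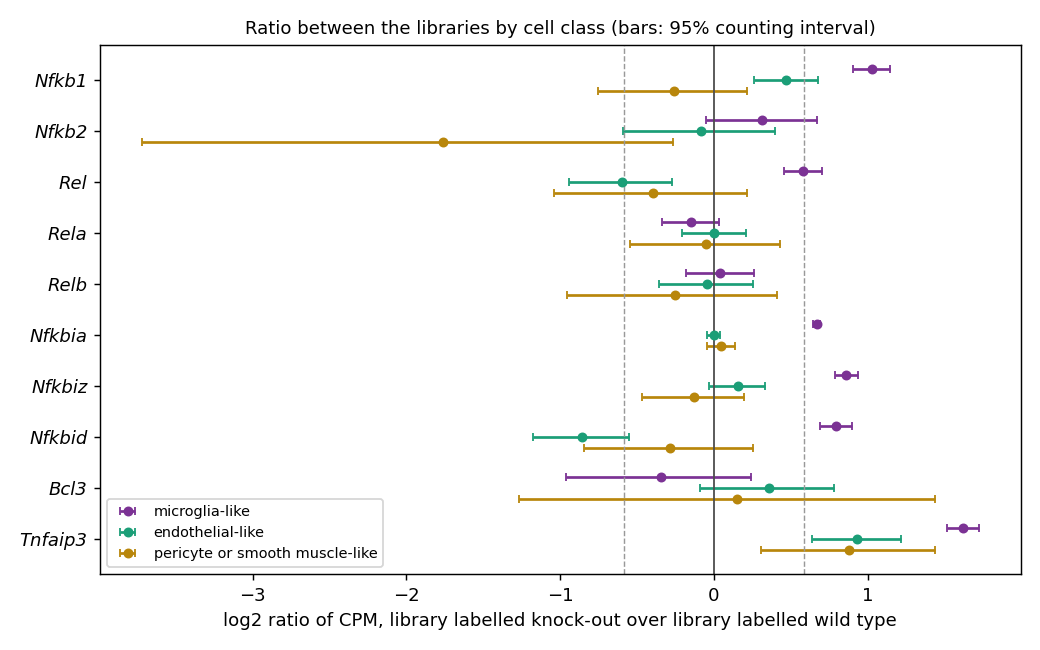
log2 ratio of each member, KO-labelled over WT-labelled library, in microglia-like, endothelial-like and pericyte or smooth muscle-like cells, with bars for the 95% counting interval and dashed lines at 1.5-fold. Microglia-like ratios run up to 1.62 for Tnfaip3, while the endothelial-like ratios of Rel and Nfkbid lie at -0.60 and -0.86.

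Detection per cell was compared with every cell thinned to 1500 UMIs, a depth that each cell reached. A Tnfaip3 UMI was then found in 25.8% (23.5 to 28.3) of KO-labelled and 11.7% (10.4 to 13.1) of WT-labelled microglia-like cells. Before thinning the shares were 50.3% (KO-labelled) and 34.9% (WT-labelled). Erythrocyte-like cells, whose median depths before thinning were 6360 UMIs (KO-labelled) and 10713 UMIs (WT-labelled), gave 1.35% (0.034 to 7.30) (KO-labelled) and 3.64% (0.44 to 12.5) (WT-labelled) when thinned. Nfkb1 was detected in 20.4% (18.3 to 22.6) (KO-labelled) and 10.7% (9.42 to 12.04) (WT-labelled) of thinned microglia-like cells, Nfkbiz in 36.2% (33.7 to 38.9) (KO-labelled) and 23.4% (21.6 to 25.2) (WT-labelled) and Nfkbid in 25.8% (23.5 to 28.3) (KO-labelled) and 15.4% (13.9 to 17.0) (WT-labelled). The erythrocyte-like shares were lower, at 4.05% (KO-labelled) and 7.27% (WT-labelled) for Nfkb1, 9.46% (KO-labelled) and 5.45% (WT-labelled) for Nfkbiz and 2.70% (KO-labelled) and 7.27% (WT-labelled) for Nfkbid, although with few cells the WT-labelled intervals of Tnfaip3, Nfkb1 and Nfkbid overlapped the microglial ones.

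Nfkbia was found in nearly all thinned cells, so the share of cells holding it could show little difference. It was detected in 94.1% (92.7 to 95.3) (KO-labelled) and 93.0% (91.9 to 94.1) (WT-labelled) of thinned microglia-like cells, and in 73.0% (KO-labelled) and 83.6% (WT-labelled) even of erythrocyte-like cells. At least 5 Nfkbia UMIs of 1500 were held by 59.1% (KO-labelled) and 36.2% (WT-labelled) of microglia-like cells, against 7.47% (KO-labelled) and 8.16% (WT-labelled) of endothelial-like cells.

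The members' summed RNA varied widely from cell to cell in the microglia-like class. Among KO-labelled cells the 10th percentile was 2 member UMIs of 1500, the median 7 and the 90th percentile 17. Among WT-labelled cells these were 1, 4 and 10. The variance was 4.13 times the mean in KO-labelled and 2.75 times in WT-labelled microglia-like cells. The means were 8.48 UMIs (KO-labelled) and 5.15 UMIs (WT-labelled). Such a ratio can rise with the mean, so it does not rank the libraries by spread. In endothelial-like cells the variance was 1.17 times (KO-labelled) and 1.07 times (WT-labelled) the mean, close to the value of 1 that counting alone gives.

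Nfkbia, Nfkbiz, Nfkbid and Tnfaip3 gave the highest correlations between members over microglia-like cells. At 1500 UMIs per cell the Pearson r of Nfkbia and Nfkbiz was 0.27 over the 1358 KO-labelled and 0.20 over the 2201 WT-labelled cells. For Nfkbia and Tnfaip3 it was 0.22 (KO-labelled) and 0.17 (WT-labelled), for Nfkbiz and Tnfaip3 0.18 (KO-labelled) and 0.13 (WT-labelled), and for Nfkbia and Nfkbid 0.16 (KO-labelled) and 0.11 (WT-labelled). Over all 45 pairs of members the median r was 0.031 (KO-labelled) and 0.013 (WT-labelled), and 6 pairs (KO-labelled) and 5 pairs (WT-labelled) lay above 0.1, each among the 10 pairs of inhibitors. At 3000 UMIs per cell, reached by 835 KO-labelled and 2178 WT-labelled cells, 9 pairs (KO-labelled) and 6 pairs (WT-labelled) did. The subunit Rel was then at 0.13 (KO-labelled) and 0.060 (WT-labelled) with Tnfaip3. With Nfkbiz it was at 0.13 (KO-labelled) and 0.074 (WT-labelled), and with Nfkbia at 0.11 (KO-labelled) and 0.084 (WT-labelled). Bcl3, with few UMIs, ran from 0.018 with Tnfaip3 to 0.11 with Nfkbid among the inhibitors in the KO-labelled library. In the WT-labelled library it ran from -0.0019 with Nfkbiz to 0.031 with Nfkbid. Summed subunits and summed inhibitors gave r of 0.086 (KO-labelled) and 0.043 (WT-labelled). Cells of 1 library share their preparation and are not replicates, and counts this sparse hold correlations near 0, so weak values are no finding. Without thinning, when cells also share their depth, the median was 0.14 (KO-labelled) and 0.16 (WT-labelled).

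**Figure D3:**
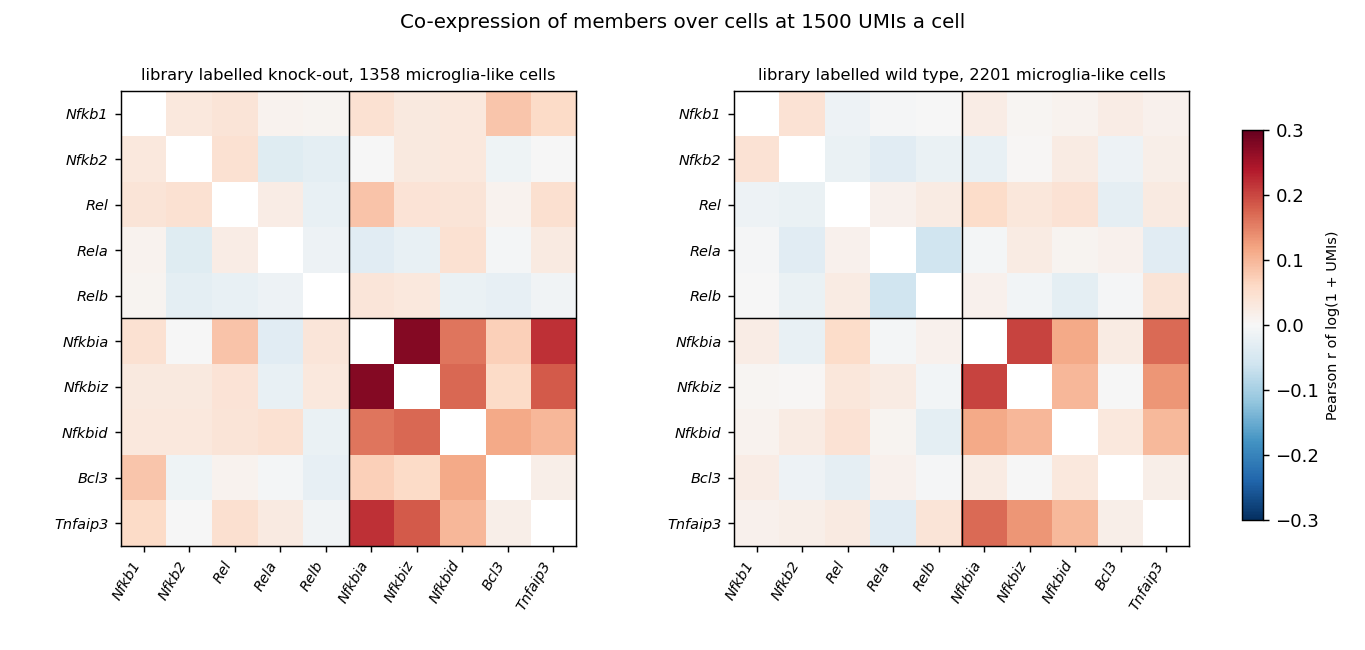
Pearson r of log(1 + UMIs) between members over microglia-like cells at 1500 UMIs per cell, for the KO-labelled (left) and the WT-labelled library (right), with lines between subunits and inhibitors. The pairs with the highest r lie in the inhibitor block, up to 0.27 (KO-labelled) and 0.20 (WT-labelled) for Nfkbia and Nfkbiz.

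Cells rich in Nfkbia more often held Nfkbiz, Nfkbid and Tnfaip3. At like Nfkbia counts several members, among them Tnfaip3 and Nfkb1, were detected more often in KO-labelled cells. With 0 or 1 Nfkbia UMIs, 14.2% (9.73 to 19.8) of 204 KO-labelled and 6.13% (4.04 to 8.86) of 424 WT-labelled cells held Tnfaip3. With 5 to 9 Nfkbia UMIs the shares were 27.4% (23.5 to 31.7) of 470 KO-labelled and 17.9% (15.1 to 21.1) of 664 WT-labelled cells. With 10 or more they were 38.9% (33.6 to 44.3) of 332 KO-labelled and 23.3% (16.4 to 31.4) of 133 WT-labelled cells. Nfkbiz was detected in 13.7% (KO-labelled) and 13.4% (WT-labelled) of cells with 0 or 1 Nfkbia UMIs and in 50.6% (KO-labelled) and 45.9% (WT-labelled) of those with 10 or more. Nfkbid was detected in 14.7% (KO-labelled) and 9.67% (WT-labelled) at 0 or 1 and 32.8% (KO-labelled) and 24.8% (WT-labelled) at 10 or more. The subunit Rel was detected in 11.8% (7.69 to 17.0) (KO-labelled) and 10.4% (7.64 to 13.7) (WT-labelled) at 0 or 1 and in 21.1% (16.8 to 25.9) (KO-labelled) and 19.5% (13.2 to 27.3) (WT-labelled) at 10 or more, with intervals that just overlapped. Rela did not climb beyond counting error, with 8.82% (KO-labelled) and 10.6% (WT-labelled) at 0 or 1 and 5.72% (KO-labelled) and 11.3% (WT-labelled) at 10 or more.

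**Figure D4:**
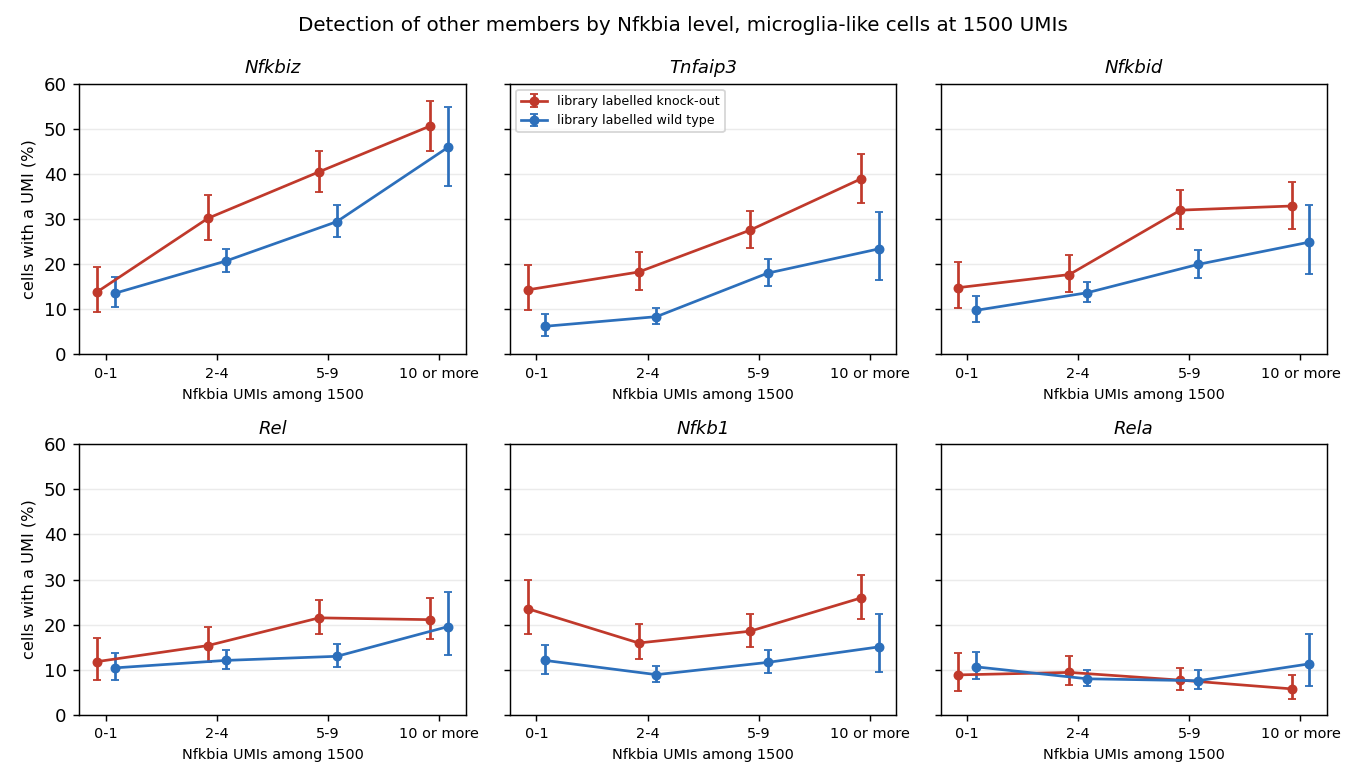
Percent of microglia-like cells with a UMI of 6 other members, by the number of Nfkbia UMIs among 1500, for the KO-labelled (red) and the WT-labelled library (blue), with 95% binomial intervals. Nfkbiz runs up to 50.6% (KO-labelled) and 45.9% (WT-labelled) in the cells with most Nfkbia, while Rela stays at 11.3% or less in both libraries.

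The genes most like the summed members over microglia-like cells were Junb, Cd83, Ccl4, Ftl1, Ier2 and Zfp36. Most of that sum was Nfkbia RNA. They were ranked by the lower r of the libraries, among 3290 genes detected in at least 5% of thinned cells of both. Junb, an AP-1 subunit gene, had r of 0.49 (KO-labelled) and 0.40 (WT-labelled), and Cd83, a surface marker gene of activated myeloid cells, 0.46 (KO-labelled) and 0.31 (WT-labelled). The chemokine gene Ccl4 had 0.29 (KO-labelled) and 0.34 (WT-labelled), Ftl1, which encodes ferritin light chain, 0.31 (KO-labelled) and 0.25 (WT-labelled), the immediate early gene Ier2 0.34 (KO-labelled) and 0.24 (WT-labelled), and Zfp36, which encodes an mRNA decay factor, 0.40 (KO-labelled) and 0.23 (WT-labelled). The median gene lay at -0.013 (KO-labelled) and -0.0070 (WT-labelled). Among summed lists, the members' sum had r of 0.52 (KO-labelled) and 0.37 (WT-labelled) with listed NF-kB targets other than cytokines. It had 0.33 (KO-labelled) and 0.37 (WT-labelled) with target cytokines and 0.41 (KO-labelled) and 0.32 (WT-labelled) with immediate early genes. The 5 subunits alone had 0.12 (KO-labelled) and 0.031 (WT-labelled) with the other targets. For subunits r was 0.054 (KO-labelled) and 0.044 (WT-labelled) with target cytokines and 0.043 (KO-labelled) and 0.034 (WT-labelled) with immediate early genes. For the members' sum r was -0.10 (KO-labelled) and -0.041 (WT-labelled) with heat shock genes and -0.37 (KO-labelled) and -0.29 (WT-labelled) with the microglia markers. With the endothelial markers it was -0.010 (KO-labelled) and -0.044 (WT-labelled).

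When the libraries were clustered separately, the microglia of each parted into 2 main clusters. The members' sum, mostly Nfkbia, was higher in the same kind of cluster in both, though not every member was. The clusters were paired by their summed RNA of the target cytokines, after the clusters had been seen. This sum was 15806 CPM (KO-labelled) and 14029 CPM (WT-labelled) in the first kind. It was 9256 CPM (KO-labelled) and 8254 CPM (WT-labelled) in the second. These cytokines are themselves listed as NF-kB targets, and Tnfaip3 was among the top 10 genes of the first kind. Values of the members between clusters are thus a description. The first kind was led in the KO-labelled library by Tnf, Il1b and Bcl2a1d (802 cells), with the neutrophil gene S100a8 also among the top 10 genes, and in the WT-labelled library by Bcl2a1d, Cxcl2 and Socs3, with Il1b and Tnf among the top 10 (1051 cells). The second had Gpr34, P2ry12 and Rgs1 among its leading genes (557 KO-labelled and 1132 WT-labelled cells). The 10 members summed to 6967 CPM (KO-labelled) and 4406 CPM (WT-labelled) in the cytokine-led clusters and 3263 CPM (KO-labelled) and 2381 CPM (WT-labelled) in the others. The subunits alone summed to 452 CPM (KO-labelled) and 287 CPM (WT-labelled) in the cytokine-led clusters. In the others they summed to 296 CPM (KO-labelled) and 260 CPM (WT-labelled).

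Within a library, Tnfaip3 and Nfkbiz had the highest folds between these clusters among the 8 members measured in microglia-like cells. Tnfaip3 was 3.65-fold (3.14 to 4.28) (KO-labelled) and 2.99-fold (2.62 to 3.43) (WT-labelled) higher in the cytokine-led cluster, Nfkbiz 3.34-fold (KO-labelled) and 2.34-fold (WT-labelled) and Nfkbia 2.07-fold (KO-labelled) and 1.90-fold (WT-labelled). The subunit Rel, at 2.103-fold (1.76 to 2.53) (KO-labelled) and 1.33-fold (1.19 to 1.49) (WT-labelled), was level with Nfkbia in the KO-labelled library. Nfkbid was 2.29-fold (KO-labelled) and 1.79-fold (WT-labelled) higher. For Rela the fold was 0.96 (0.75 to 1.22) (KO-labelled) and 1.03 (0.90 to 1.18) (WT-labelled), within counting error of 1. So was that of Relb, at 1.04 (0.78 to 1.41) (KO-labelled) and 1.00 (0.85 to 1.19) (WT-labelled). The scarce Nfkb2 had 1.81 (1.09 to 3.17) (KO-labelled) and 0.75 (0.57 to 1.01) (WT-labelled). Nfkb1 had folds of 1.52 (1.31 to 1.77) (KO-labelled) and 1.05 (0.94 to 1.18) (WT-labelled).

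Between the libraries, Tnfaip3, Nfkb1, Nfkbia, Nfkbiz and Nfkbid were higher in KO-labelled cells within both kinds of cluster. Tnfaip3 was at 358 CPM (KO-labelled) and 126 CPM (WT-labelled) in the cytokine-led clusters, a log2 ratio of 1.51 (1.40 to 1.62), and at 98.1 CPM (KO-labelled) and 42.1 CPM (WT-labelled) in the others, a log2 ratio of 1.22 (0.94 to 1.49). Nfkb1 had log2 ratios of 1.16 (1.01 to 1.30) in the cytokine-led and 0.62 (0.39 to 0.85) in the other clusters, and Nfkbia of 0.60 (0.58 to 0.63) and 0.48 (0.43 to 0.53). Nfkbiz had log2 ratios of 0.82 (0.74 to 0.90) in the cytokine-led and 0.31 (0.11 to 0.51) in the other clusters, the second a 1.24-fold difference, and Nfkbid of 0.78 (0.66 to 0.89) and 0.42 (0.19 to 0.66). Rel was at 164 CPM (KO-labelled) and 101 CPM (WT-labelled) in the cytokine-led clusters, a log2 ratio of 0.70 (0.56 to 0.84), and at 78.2 CPM (KO-labelled) and 75.9 CPM (WT-labelled) in the others, a log2 ratio of 0.043 (-0.23 to 0.31). The difference between these ratios was not tested.

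**Figure D5:**
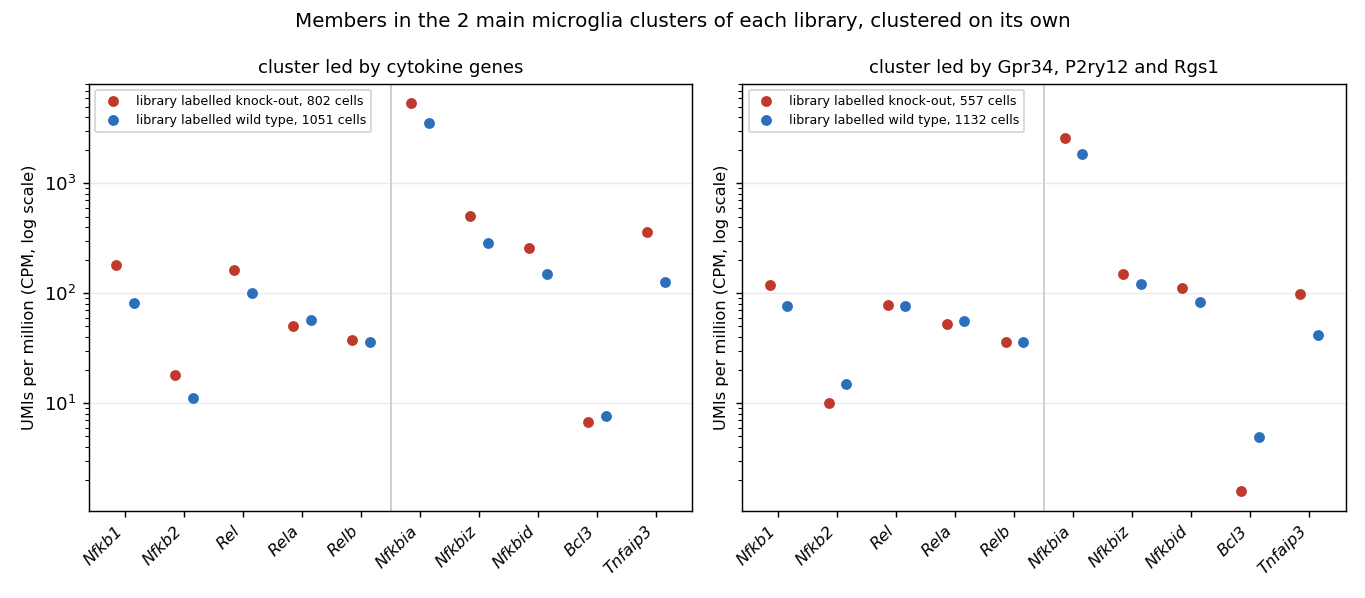
Level of each member, as CPM on a log axis, in the 2 main microglial clusters of each library, for the KO-labelled (red, left of each pair) and the WT-labelled library (blue). Tnfaip3 is at 358 CPM (KO-labelled) and 126 CPM (WT-labelled) in the cytokine-led panel and at 98.1 CPM (KO-labelled) and 42.1 CPM (WT-labelled) in the other, and Rel is nearly level in that panel.

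Medians of the lists of other pathway genes lay between 0.036 and 0.14 in microglia-like cells, while single genes differed beyond counting error in both directions. Of all 5749 genes measured there, 7.9% passed 1.5-fold upward and 12.5% downward, and the median log2 ratio was -0.037. Of 10 receptor genes 6 were measured, 1 passed 1.5-fold upward and 0 downward, and the median log2 ratio was 0.036. The gene that passed was Tnfrsf1b, which encodes TNF receptor 2, at 54.6 CPM (KO-labelled) and 31.9 CPM (WT-labelled), a log2 ratio of 0.78 (0.57 to 0.98), while the Toll-like receptor gene Tlr2 was at 140.4 CPM (KO-labelled) and 132 CPM (WT-labelled). Of 26 adaptors and kinases 13 were measured, 1 passed upward and 0 downward, and the median was 0.14. It was the receptor adaptor gene Traf5, at 32.5 CPM (KO-labelled) and 21.4 CPM (WT-labelled), and the Toll-like receptor adaptor gene Myd88 was at 51.5 CPM (KO-labelled) and 37.4 CPM (WT-labelled), a log2 ratio of 0.46 (0.26 to 0.66). Irak1 had a log2 ratio of 0.35 (0.13 to 0.58), and Tradd was lower in KO-labelled cells, at -0.33 (-0.64 to -0.020). Of 18 other inhibitors 11 were measured, 0 passed upward and 1 downward, and the median was 0.040. It was Usp18, better known as a negative regulator of interferon signalling, at 7.47 CPM (KO-labelled) and 23.6 CPM (WT-labelled), a log2 ratio of -1.66 (-2.13 to -1.22). Nfkbie, which encodes IκBε, was at 25.7 CPM (KO-labelled) and 18.8 CPM (WT-labelled).

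Listed targets had higher median ratios than the upstream genes. The lists were chosen with earlier results of these data known, so this order is a description. Of all genes measured in microglia-like cells, 7.9% passed 1.5-fold upward and 12.5% downward, with a median log2 ratio of -0.037. Of 14 target cytokines 10 were measured, 3 passed 1.5-fold upward and 1 downward, and the median log2 ratio was 0.41. Those that passed upward were Ccl2 at 363 CPM (KO-labelled) and 188 CPM (WT-labelled), Tnf at 475 CPM (KO-labelled) and 304 CPM (WT-labelled) and Il1a at 165 CPM (KO-labelled) and 106 CPM (WT-labelled), and Ccl5 passed downward at 12.3 CPM (KO-labelled) and 41.9 CPM (WT-labelled). Of 20 other targets 18 were measured, 6 passed upward and 0 downward, and the median was 0.49. They included Birc3, which encodes an inhibitor of apoptosis that acts at the TNF receptor, at 85.6 CPM (KO-labelled) and 39.6 CPM (WT-labelled), and the adhesion gene Icam1 at 297 CPM (KO-labelled) and 153 CPM (WT-labelled). The inflammasome gene Nlrp3 was at 46.1 CPM (KO-labelled) and 25.9 CPM (WT-labelled) and Marcksl1 at 634 CPM (KO-labelled) and 126 CPM (WT-labelled), a log2 ratio of 2.33 (2.26 to 2.41). Marcksl1 was also among the top 10 genes of cluster 2, which held most KO-labelled microglia-like cells.

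Immediate early and heat shock genes, which are known to respond to tissue dissociation, had higher ratios as well. All 20 immediate early genes were measured, 10 passed upward and 0 downward, and the median log2 ratio was 0.58. The same values over all measured genes were 7.9% upward, 12.5% downward and a median of -0.037. Nr4a1 was at 339 CPM (KO-labelled) and 121 CPM (WT-labelled), Socs3 at 1211 CPM (KO-labelled) and 544 CPM (WT-labelled) and Zfp36 at 1137 CPM (KO-labelled) and 525 CPM (WT-labelled). All 10 heat shock genes were measured, 4 passed upward and 1 downward, and the median was 0.44, with Hspa1b at 373 CPM (KO-labelled) and 169 CPM (WT-labelled) and Hspb1 at 410.0 CPM (KO-labelled) and 931 CPM (WT-labelled). Both cords were digested with collagenase, and the part of that preparation in the members' levels was not tested. In endothelial-like cells the target cytokine median was -0.82 over 11 genes, where microglia marker RNA was lower as well. The immediate early and heat shock medians were 0.19 and -0.0063 there, beside 0.091 for all genes.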

How the data were processed

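YFP-sorted cells were made into 10x Chromium 3′ v2 libraries, per the labels' protocols. The authors deposited raw UMI counts for each gene and barcode, and the deposited gene and barcode lists hold other, non-numeric content. The submitters' processing notes name STAR, Cell Ranger 2.0.1, Seurat 2.1.0, mm10 and GRCm38.p5 without a role. How the authors chose barcodes is not recorded in the labels.

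Kept barcodes had 300 or more genes and no more than 10% mitochondrial UMIs. This left out 8 KO-labelled barcodes and 0 WT-labelled ones. Both libraries were clustered together on 2000 variable genes, 30 principal components and 15 neighbours (scanpy 1.11.5, leidenalg 0.10.2, resolution 0.5). Clusters were named from marker lists. A marker counted at 20 CPM or more and over the midpoint between its lowest and highest cluster. The name went to a type with 2 or more such markers in the cluster's top 10 genes by fold, or else to the type whose list was counted most fully, if every rival stayed under 60% of it. At least 3 markers, 50% of the list and no other type with more markers in the top 10 were required. This rule was set after clusters had been seen. Cluster 4 (143 KO-labelled and 455 WT-labelled cells, led by Gzma, Ccl5 and Nkg7) stayed unnamed. Doublets were not removed for the reported values, and removing those with the highest Scrublet scores was an alternative.

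UMIs were summed per class and library. Levels carry exact Poisson intervals, ratios exact conditional binomial intervals and shares exact Clopper-Pearson intervals, all at 95%. A gene counted as measured at 20 CPM in at least 1 library. Correlations used log(1 + UMIs) after thinning to 1500 UMIs. The steps were tested on simulated data. Named genes were the members, up to 4 genes with the largest absolute ratio in each pathway list, and the 6 genes most like the members. The members and lists were chosen with earlier results of these data known. Gene positions come from the GENCODE M21 annotation (GRCm38).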

Additional observations from a re-analysis of the deposited data

Results flagged for a closer look

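Rel and Nfkbid differed in opposite directions between the libraries in microglia-like and in endothelial-like cells, and the difference between the classes was not tested. Rel had a log2 ratio, KO-labelled over WT-labelled, of 0.58 (0.46 to 0.70) in microglia-like cells and -0.60 (-0.94 to -0.27) in endothelial-like cells. Nfkbid had 0.80 (0.69 to 0.90) and -0.86 (-1.18 to -0.55). The 12 microglia markers summed to 4557 CPM in KO-labelled and 11700 CPM in WT-labelled endothelial-like cells, and their part in the endothelial-like ratios was not tested.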

How the results depend on the processing

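With 1 library per group, no replicate could be left out. No paired analysis was possible because each group had a single library. Named by the same rule after separate clustering, 557 KO-labelled and 2183 WT-labelled cells were microglia-like. The 802-cell cytokine-led cluster was then left out, and the members' median log2 ratio was -0.12. The number at least 1.5-fold higher was 0, beside 8.94% of genes, and Nfkbia, Nfkbiz and Nfkbid were at -0.14, -0.53 and -0.13. A further setting, chosen after seeing the data, kept every such cluster with more microglia than endothelial marker RNA, and Nfkbia, Nfkbiz, Nfkbid and Tnfaip3 were then at 0.70, 0.93, 0.81 and 1.69. In another chosen after seeing the data, the cells with fewest endothelial marker UMIs (812 KO-labelled and 1364 WT-labelled) gave 0.65 for Nfkbia and 1.62 for Tnfaip3. The median was 0.50 with 3 members past 1.5-fold over all filtered cells, beside 4.30% of genes. It was 0.51 with 3 once the library make-up was taken out, beside 11.4% of genes. At resolution 1.0 it was 0.91, and over 10 members at a minimum of 5 CPM or none it was 0.62. At the lower minimum each ratio stayed the same, and Nfkb2 at 0.31 and Bcl3 at -0.34 joined the median. At resolution 1.0 the microglia-like class held 1349 KO-labelled and 1528 WT-labelled cells, and 637 WT-labelled cells were named neutrophil-like. The cause of the other shifts was not tested. Over the 14 alternatives Tnfaip3 ran between 0.099 and 1.87, Nfkb1 between 0.58 and 1.06 and Rel between -0.21 and 0.64, and Rela was below 0 in all 14. Depth limits Nfkb2 and Bcl3, with 96 and 32 UMIs in KO-labelled microglia-like cells.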

Other observations

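The members were also read in smaller groups of cells. Cycling cells, which held microglia and proliferation markers, numbered 13 in the KO-labelled and 14 in the WT-labelled library, and their 10 members summed to 4744 CPM (4312 to 5208) in KO-labelled and 4135 CPM (3781 to 4514) in WT-labelled cells. The unnamed cluster with microglial and endothelial markers held 3314 CPM (3208 to 3422) in KO-labelled and 2415 CPM (2377 to 2454) in WT-labelled cells. Of its barcodes, 45 of 143 (KO-labelled) and 153 of 455 (WT-labelled) were among those with the highest Scrublet doublet scores, and its median depth was 6768 UMIs (KO-labelled) and 13139 UMIs (WT-labelled), against 3465 (KO-labelled) and 5539 (WT-labelled) in microglia-like cells. Ependymal-like cells, which line the central canal, numbered 28 in the KO-labelled and 19 in the WT-labelled library, and held 991 CPM (861 to 1134) in KO-labelled and 1557 CPM (1415 to 1710) in WT-labelled cells. Microglia markers summed to 5735 CPM in KO-labelled and 12488 CPM in WT-labelled ependymal-like cells, and the part of that RNA in the members' levels was not tested.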
